A study of Mus musculus with 8 samples.

Results

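The collagen genes of a mouse spleen stromal cell line were taken as the gene symbols of collagen chains (Col, a type number, the letter a and a chain number) together with 23 named enzymes and helpers of collagen assembly. Of the 12589 genes in the deposited table, 45 met this rule, namely 27 chains and 18 enzymes. The cells were of the line mSSC-YFP, an immortalized line from spleen stroma that expresses a yellow fluorescent protein. By the labels, 4 samples were treated with BMS493, an inhibitor of retinoic acid (RA) signaling, and 4 with its vehicle DMSO, for 48 h in DMEM with fetal bovine serum. All 8 samples came from this single line, and nothing in the labels says that they were separate cultures.

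The measurement used here was 1 value per gene, the mean log2 normalized expression over the samples of both groups, as the authors pooled it. It carries no value of a single sample, so the depth of each library and the spread between samples are unknown, no error can be put on any level, and no test was run. For the same reason BMS493 was not compared with DMSO here, and every level below is a mean over treated and vehicle samples alike. Raised back from the log scale, the values of all genes summed to 989369, so the scale is like that of CPM, read counts scaled to a common library total. Since longer transcripts give more reads, genes were compared by a level per kb unless a sentence says that a value is not divided by length. The level per kb is the log2 level minus the log2 of the gene's exon length in kb. The exon length was the union of all annotated exons in GENCODE M21 on mm10, which gave a length for 12386 genes.

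Collagens are secreted matrix proteins built of 3 chains wound into a triple helix, and the helix needs the regular repeat Gly-X-Y, a glycine followed by any pair of residues. Fibrillar collagens form long rope-like fibrils, type IV collagen forms the sheet of basement membranes, type VI forms beaded filaments near the cell, and fibril-associated collagens with interrupted helices (FACITs) coat the fibrils. In the spleen, stromal cells lay down a net of collagen fibers along which lymphocytes move. Inside the cell, prolines and lysines of the chains are hydroxylated and the helix is guarded by a chaperone. After secretion the end propeptides of fibrillar collagens are cut off and the chains are cross-linked.

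The repeat is printed here for 1 chain of each of the 3 most abundant classes, since the classes differ in it. Some of the enzymes described further on act upon it. The coding sequences are from GENCODE M21 on mm10, written 5′ to 3′ on the coding strand with introns left out, and capitals mark the glycine codons that open a Gly-X-Y triplet. The stretch of Col1a1 lies within chr11:94942876-94943441 on the plus strand, spans 3 exons and covers codons 468 to 527. The stretch of Col4a1 lies within chr8:11244368-11245237 on the minus strand, spans 4 exons and covers codons 139 to 196. The stretch of Col6a1 lies within chr10:76714159-76715039 on the minus strand, spans 4 exons and covers codons 493 to 542.
Col1a1: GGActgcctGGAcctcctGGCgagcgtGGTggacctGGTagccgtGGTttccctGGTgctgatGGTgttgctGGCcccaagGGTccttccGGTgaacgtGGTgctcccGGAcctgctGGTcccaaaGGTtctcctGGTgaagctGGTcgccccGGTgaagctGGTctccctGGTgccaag
Col4a1: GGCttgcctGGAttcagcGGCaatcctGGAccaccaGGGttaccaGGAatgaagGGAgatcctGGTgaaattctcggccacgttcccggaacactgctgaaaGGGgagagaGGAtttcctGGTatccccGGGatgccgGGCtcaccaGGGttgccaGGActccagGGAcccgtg
Col6a1: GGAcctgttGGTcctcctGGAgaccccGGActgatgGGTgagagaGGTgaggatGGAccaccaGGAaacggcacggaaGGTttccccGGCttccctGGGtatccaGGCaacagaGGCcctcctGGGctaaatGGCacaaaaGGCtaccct
The stretch of Col1a1 was picked from inside its longest unbroken repeat, and those of Col4a1 and Col6a1 were picked around a break. They thus show what the repeat and a break look like, and they do not compare the chains. In Col1a1 the 20 capital codons open 1 triplet after another with no break. In Col4a1 the 16 capital codons fall into 2 blocks with a break of 10 residues between them, and in Col6a1 the 16 capital codons are parted by a break of 2 residues.

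The stromal identity of the line was checked against markers. Of 10 fibroblast and reticular stroma markers, 9 had a row, with levels per kb of 9.54 for the filament protein Vim, 6.16 for Pdpn, 6.14 for Thy1, 4.88 for Vcam1, 4.26 for Eng, 3.99 for Pdgfrb and 9.96 for S100a4. Pdgfra, at 1.92, and Nt5e, at -2.41, were below the median of all genes, 2.85, and Icam1 had no row. None of the 5 B cell markers and none of the 8 other leukocyte markers had a row. Markers and the other lists below were looked up by current symbol only, so a gene under an older symbol would be missed. Of 5 endothelial markers only Pecam1 and Kdr had one, at -2.17 and -0.34 per kb. Of 6 epithelial markers, Krt8, Krt18 and Krt14 were between -0.21 and 0.58 per kb, and Epcam and Cldn4 had no row. The adhesion protein Cdh1, also an epithelial marker, stood at 5.83 per kb, above the stromal markers Vcam1, Eng, Pdgfrb and Pdgfra. Of the 7 cartilage and bone markers, Sox9 (2.80 per kb) and Runx2 (2.39 per kb) had a row, and Acan, Matn1, Bglap, Ibsp and Sp7 had none. In bulk RNA, a low level in every cell and a higher level in a few cells cannot be told apart.

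Collagen chains spanned nearly the whole range of the transcriptome. Their levels per kb ran from -3.001 to 10.57 with a median of 4.04, beside a median of 2.85 over all genes with a length. Of the 27 chains, 11 lay above the 90th percentile of all genes by level per kb and 4 above the 99th, and 10 lay below the median. The 18 enzymes had a narrower range, 0.82 to 9.29 per kb with a median of 5.04, and 7 of them lay above the 90th percentile. Not divided by length, the chains made up 2.86% and the enzymes 0.60% of the summed linear level of all genes. Of the 44 chains in the annotation, 17 had no row in the table. The lowest level in the table was -0.58, so a chain with no row may have been below a filter. It may also have stood under an older symbol, which was not looked up for chains, and it is not described as absent.

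**Figure D1:**
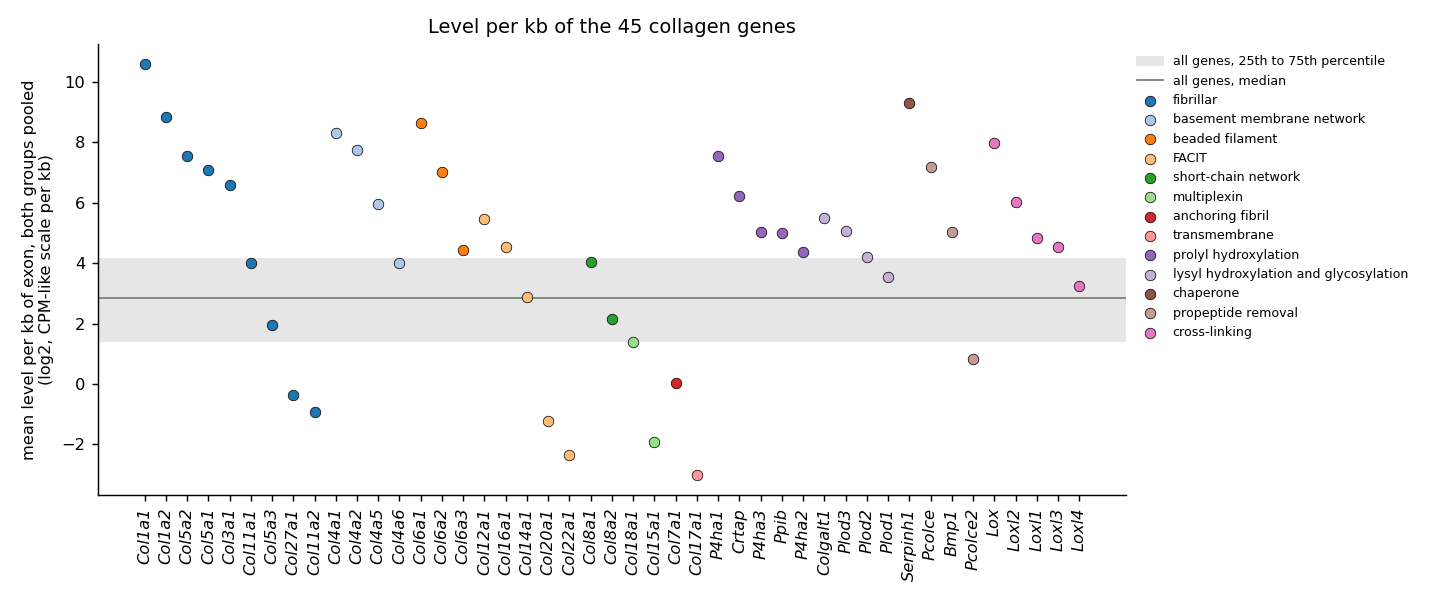
Mean level per kb of exon of each of the 45 collagen genes (log2, CPM-like scale per kb, 1 point per gene, mean over both groups with no error known), ordered within chain class and enzyme step, with the median (line) and the 25th to 75th percentile (band) of all genes. Fibrillar, basement membrane and beaded filament classes reach 10.57, 8.32 and 8.63, whereas 17 of the 18 enzymes lie above the median of 2.85 and Pcolce2 lies below it at 0.82.

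Fibrillar collagens held the highest chain and also some of the lowest. Of 11 annotated fibrillar chains 9 had a row, with a median level per kb of 6.58, and the cartilage collagen Col2a1 and Col24a1 had none. Col1a1, the main chain of type I collagen of skin, bone and tendon, stood at a log2 level of 13.29, the highest of all 12589 genes when not divided by length, and at 10.57 per kb (chromosome 11, 94936224 to 94953042). Its partner Col1a2 stood at 12.47, or 8.84 per kb (chromosome 6, 4504814 to 4541544). Type V collagen, which is known to start fibrils and to set their width, was represented by Col5a2 at 7.53 per kb and Col5a1 at 7.07 per kb. Col3a1, the chain of the reticular fibers of spleen and lymph node, stood at 9.87, or 6.58 per kb (chromosome 1, 45311538 to 45349706). Col3a1 was thus below 4 of the other fibrillar chains per kb, although over the longest transcript (7.40) and the coding length (7.74) it was above Col5a1 (7.08 and 7.69). Of the remaining chains, Col11a1 was at 4.00 and Col5a3 at 1.95 per kb, and Col27a1 and Col11a2 were at -0.37 and -0.93 per kb.

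The chains of a single collagen type were unequal, by a size that depended on the length used. Type I collagen is built of 2 chains of Col1a1 to 1 of Col1a2, and the level of Col1a1 per kb was 3.32-fold that of Col1a2 over the union of exons, 1.58-fold over the longest transcript and 1.66-fold over the coding length. Col1a2 has a union of exons of 12426 bp against 5348 bp for its longest transcript, the widest gap of any fibrillar chain, so the ratio for type I rests on which of these the cells use, which was not measured. Col5a2 exceeded Col5a1 1.38-fold, 1.98-fold and 1.91-fold under the same 3 lengths. Col5a1 exceeded Col5a3 34.8-fold, 31.6-fold and 41.0-fold. Col11a1 exceeded Col11a2 30.4-fold, 44.4-fold and 54.2-fold. The order of the chains within each of these types was the same under the 3 lengths.

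Basement membrane collagen was led by its common pair. Of the 6 chains of type IV, 4 had a row, with a median level per kb of 6.86. Col4a1 and Col4a2, which form the trimer found in nearly every basement membrane, stood at 11.22 and 10.48, or 8.32 and 7.75 per kb. Col4a5 and Col4a6, chains of a trimer found in smooth muscle and some epithelial basement membranes, stood at 8.71 and 7.004, or 5.96 and 4.01 per kb. Col4a3 and Col4a4, which join Col4a5 in the kidney filter, had no row. Col4a1 was 5.12-fold above Col4a5 per kb, and Col4a2 was 13.4-fold above Col4a6.

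The type IV genes are arranged as head-to-head pairs, and the pairs went together in whether they had a row. Col4a1 (chromosome 8, 11198423 to 11312826, minus strand) and Col4a2 (11312805 to 11449287, plus strand) start 21 bp apart and overlap by 22 bp, and the ratio of their levels per kb was 1.48. Whether reads in this short overlap were assigned by strand is not known. Col4a6 (X chromosome, 141165403 to 141474076, minus strand) and Col4a5 (141475385 to 141689234, plus strand) start 1309 bp apart and had a ratio of 3.87 in favor of Col4a5. Col4a4 and Col4a3 start 72 bp apart on chromosome 1, and neither had a row. Among the other chains within 100 kb of each other, Col3a1 and Col5a2 lie 24614 bp apart on chromosome 1, at 6.58 and 7.53 per kb. Col6a2 and Col6a1 lie 85161 bp apart on chromosome 10, at 7.02 and 8.63 per kb. Neither the cluster of Col6a4, Col6a5 and Col6a6 on chromosome 9 nor the neighbours Col9a1 and Col19a1 had a row for any of their genes.

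Beaded filament collagen had the highest median per kb of the chain classes with more than 1 chain, at 7.02. Type VI collagen, which is secreted as tetramers and anchors cells to the matrix around them, is built of 1 chain each of Col6a1, Col6a2 and Col6a3, and these 3 of the 6 annotated chains had a row. Col6a1 stood at 8.63 per kb, Col6a2 at 7.02 and Col6a3 at 4.43. Per kb, Col6a1 exceeded Col6a2 3.06-fold over the union of exons, 1.93-fold over the longest transcript and 1.62-fold over the coding length. Col6a2 exceeded Col6a3 6.02-fold, 8.63-fold and 13.3-fold under those lengths. Col6a3, the chain with the long row of N-terminal globular domains, was thus the lowest of the 3 by every length, although the assembled protein holds as much of it as of the other two.

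FACITs were near the middle of all genes. Of 9 annotated FACIT chains 5 had a row, with a median level per kb of 2.87 beside 2.85 over all genes. Over the longest transcript or the coding length the class median lay on the other side of the median of all genes, at -0.30 and -1.31 from it on the log2 scale. Col12a1, which binds type I fibrils in tendon and other dense tissue, was the highest at 9.39, or 5.46 per kb (chromosome 9, 79598991 to 79718831, minus strand). Col16a1 followed at 4.53 per kb and Col14a1, a relative of Col12a1 on the surface of fibrils, at 2.87 per kb. Col20a1 was at -1.24 and Col22a1, known from muscle and tendon junctions, at -2.36 per kb. The chains of type IX, the FACIT of cartilage, and Col19a1 had no row. Col12a1 and Col16a1 thus lay above the median of all genes, and Col20a1 and Col22a1 far below it. The median of the class rests on Col14a1 alone, which lay close to the median of all genes.

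The remaining classes held few chains. Col8a1 and Col8a2, the short chains of a hexagonal network beneath endothelia, stood at 4.04 and 2.15 per kb. The multiplexins Col18a1, the source of the fragment endostatin, and Col15a1 stood at 1.39 and -1.93 per kb. Col7a1, the anchoring fibril of skin, stood at 0.02 per kb, and Col17a1, a transmembrane collagen of hemidesmosomes, at -3.001 per kb, the lowest of all members. Col10a1, Col13a1, Col23a1, Col25a1, Col26a1 and Col28a1 had no row. Of the 27 chains, 3 had a log2 level, not divided by length, under 1, which is 11.1% of them beside 6.80% of all genes.

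**Figure D2:**
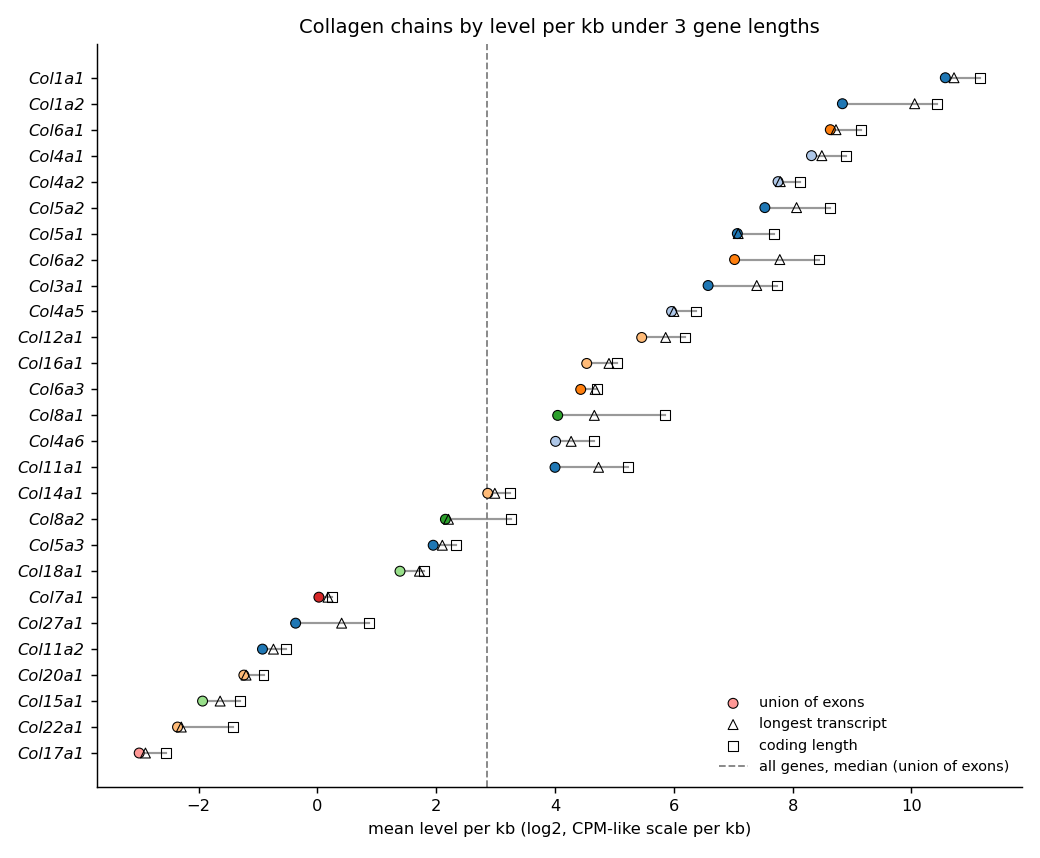
Mean level per kb of the 27 collagen chains (log2, CPM-like scale per kb) with the level divided by the union of exons (circles, colored by class), by the longest transcript (triangles) or by the coding length (squares), joined by a line per chain, and the median of all genes over the union of exons (dashed line). Col1a1 leads under each length, and Col1a2 moves from 8.84 to 10.43 between the union of exons and the coding length.

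Expressed as shares of the summed linear levels per kb of all chains, type I collagen made up 53.8%, type IV 16.7%, type VI 14.9% and type V 8.79%. Type III made up 2.60%, type XII 1.196%, and each other type under 1%. Col1a1 alone held 41.4%, followed by Col1a2 with 12.4%, Col6a1 with 10.8% and Col4a1 with 8.68%. Over the longest transcript and the coding length Col1a1 held 34.9% and 35.1% and Col1a2 22.1% and 21.2%, while Col6a1 held 8.81% and 8.68%. By class, fibrillar chains held 65.7%, basement membrane chains 16.7%, beaded filament chains 14.9% and FACITs 2.04%. Over the longest transcript or the coding length, type I held 57.0% or 56.3%, and type IV held 13.8% or 13.2%. The order of type IV and type VI turned under these lengths, where type VI held 13.9% and 14.4%. The place of type I, of type V as the fourth and of type III as the fifth did not depend on the length.

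**Figure D3:**
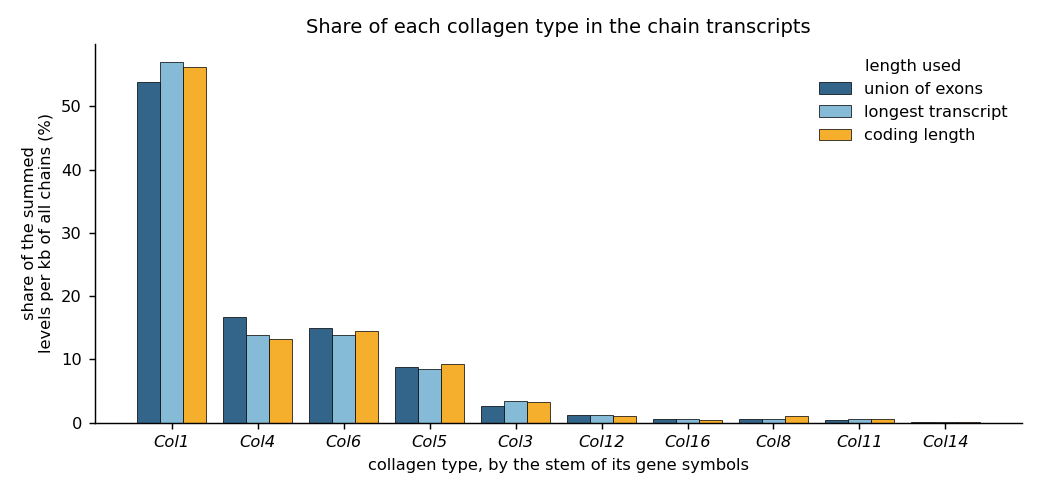
Share of each collagen type in the summed linear levels per kb of all 27 chains (percent, bars from 0, 1 bar for each of the 3 lengths), for the 10 types with over 0.1%. Type I holds 53.8%, 57.0% and 56.3% under the 3 lengths, and types IV and VI lie within 13.2% to 16.7%.

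Chains of the classes also differ in the repeat itself, which was read from the annotated coding sequences as runs of at least 5 Gly-X-Y triplets. Fibrillar chains had 2 to 3 runs, and the longest was 337 to 344 triplets in 8 of 9 chains and 217 in Col27a1. Col3a1 had the longest, 344 triplets, and Col1a1 had 338. Type IV chains had 22 to 25 runs, of which the longest was 40 triplets in Col4a1, 66 in Col4a2, 42 in Col4a5 and 45 in Col4a6, while 74.9% to 78.8% of their residues still lay in runs. The break printed for Col4a1 is 1 of those between its 22 runs. The 3 chains of type VI had 3 runs each, with a longest run of 87 triplets in Col6a1 and Col6a2 and 45 in Col6a3, and only 10.0% of the residues of Col6a3 lay in runs. FACITs ranged from 2 runs in Col20a1 to 21 in Col16a1. Col12a1, the highest FACIT, had 8.12% of its 3065 residues in runs, the lowest share of any chain.

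**Figure D4:**
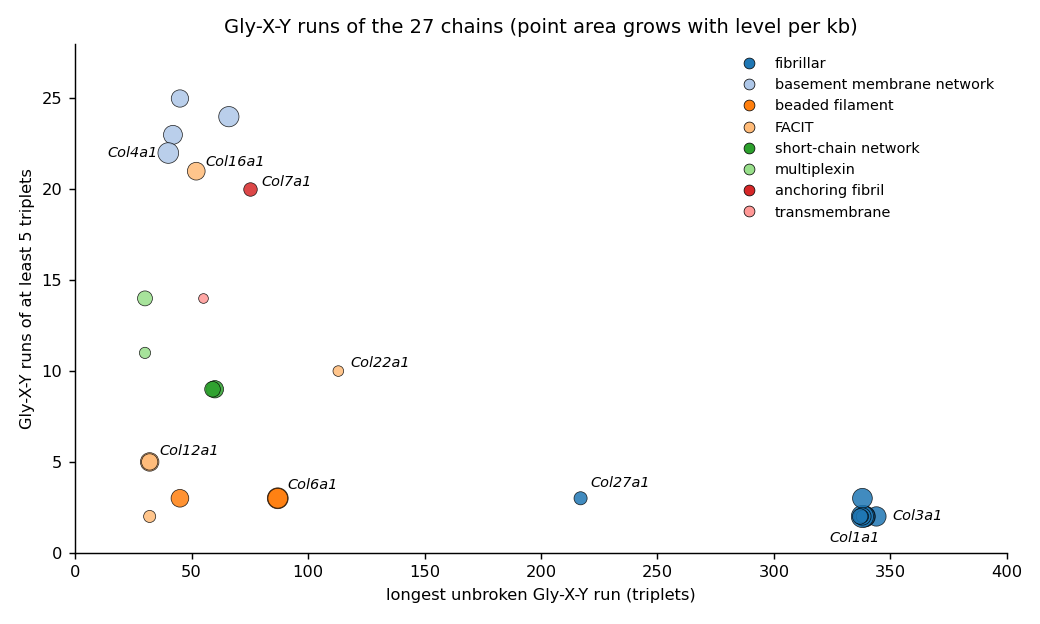
Number of Gly-X-Y runs of at least 5 triplets (vertical) against the longest unbroken run in triplets (horizontal) for the 27 chains with a row, colored by class, with a point area that grows with the level per kb. Fibrillar chains lie at 2 to 3 runs and, but for Col27a1 at 217, at 337 to 344 triplets, and type IV chains lie at 22 to 25 runs and 40 to 66 triplets.

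The Y position of the repeat is among the places where proline and lysine hydroxylases act. The chains held unequal numbers of prolines and lysines at this position. Residues outside the Y position are left out of the values below. Proline filled 28.05% of the Y positions in Col1a2, 35.2% in Col1a1 and 42.6% in Col3a1, and 55.6% in Col4a5, the highest share. Lysine filled 6.23% of the Y positions in Col1a2 and 7.04% in Col1a1, beside 12.7% to 16.1% in type IV chains and 15.5% to 23.6% in type VI chains. Among fibrillar chains, those of type I, type III and Col5a2 had 6.23% to 7.56%, and Col5a1, Col5a3, Col11a1, Col11a2 and Col27a1 had 11.9% to 13.4%. Weighted by the level per kb of each chain over the union of exons, Col1a1 carried 43.6% of all Y prolines and 33.4% of all Y lysines. Col4a1 carried 15.2% of the Y prolines and 19.6% of the Y lysines, Col1a2 carried 10.4% and 8.84%, and Col4a2 carried 8.07% and 10.2%. The order of Col4a1 and Col1a2 depended on the length for prolines. Col1a2 carried 18.9% of them over the longest transcript and 18.3% over the coding length, against 13.5% and 13.2% for Col4a1. For lysines Col4a1 carried 17.7% and 17.3% under these lengths and Col1a2 16.4% and 15.8%. Col4a2 carried 8.38% and 7.83% of the lysines, so its order with Col1a2 turned. These shares count encoded residues and not hydroxylated ones.

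Among the enzymes that hydroxylate proline, P4ha1 was the highest. The catalytic subunits of prolyl 4-hydroxylase, whose product holds the helix together at body temperature, stood at 7.56 per kb for P4ha1, 5.04 for P4ha3 and 4.38 for P4ha2. P4ha1 made up 77.8% of their summed linear level per kb over the union of exons, 69.2% over the longest transcript and 77.1% over the coding length. The order of P4ha2 and P4ha3 turned with the coding length, where they held 12.8% and 10.1%. Crtap, a partner of prolyl 3-hydroxylase 1, stood at 6.22 per kb and Ppib, the prolyl isomerase of the same complex, at 4.99. Over the coding length their order turned, with Crtap at 6.78 and Ppib at 7.34. P3h1, P3h2, P3h3 and P3h4 had no row under these symbols. Rows under their older symbols, outside the rule, gave levels per kb of 4.91 for Lepre1 (P3h1), 2.54 for Leprel1 (P3h2), 4.14 for Leprel2 (P3h3) and 7.22 for Leprel4 (P3h4).

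Lysyl hydroxylases, which make the sites for sugars and for cross-links, had Plod3 as their highest member. Plod3 stood at 5.05 per kb, Plod2 at 4.19 and Plod1 at 3.55. Plod3, which hydroxylates helix lysines and adds the glucose, made up 52.6% of the family, Plod2, known for lysines of the telopeptides, 28.9% and Plod1 18.5%. The galactosyltransferase Colgalt1 stood at 5.48 per kb, and Colgalt2 had no row under this symbol.

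Serpinh1, the collagen chaperone Hsp47 that binds the folded helix in the endoplasmic reticulum, was the highest of the 18 enzymes and helpers. Its log2 level was 10.58, or 9.29 per kb (chromosome 7, 99345376 to 99353239, minus strand), which only Col1a1 exceeded among the 45 members over the union of exons, and Col1a2 as well over the longest transcript and the coding length. For the removal of propeptides, Pcolce, the enhancer of C-proteinase, stood at 7.16 per kb and Bmp1, the C-proteinase, at 5.04. Pcolce2, a second enhancer, stood at 0.82 per kb, the lowest of the enzymes, and Pcolce held 98.8% of the sum of both enhancers.

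Cross-linking enzymes were led by Lox. Lysyl oxidases turn lysines of collagen and elastin into the aldehydes that form cross-links. Lox stood at a log2 level of 10.24, or 7.98 per kb, and Loxl2 at 8.46, or 6.02 per kb. Loxl1, known for elastic fibers, stood at 4.84 per kb, Loxl3 at 4.54 and Loxl4 at 3.23. All 5 members of the family had a row and lay above the median of all genes per kb. Lox made up 66.7% of the family over the union of exons, 65.9% over the longest transcript and 78.5% over the coding length.

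**Figure D5:**
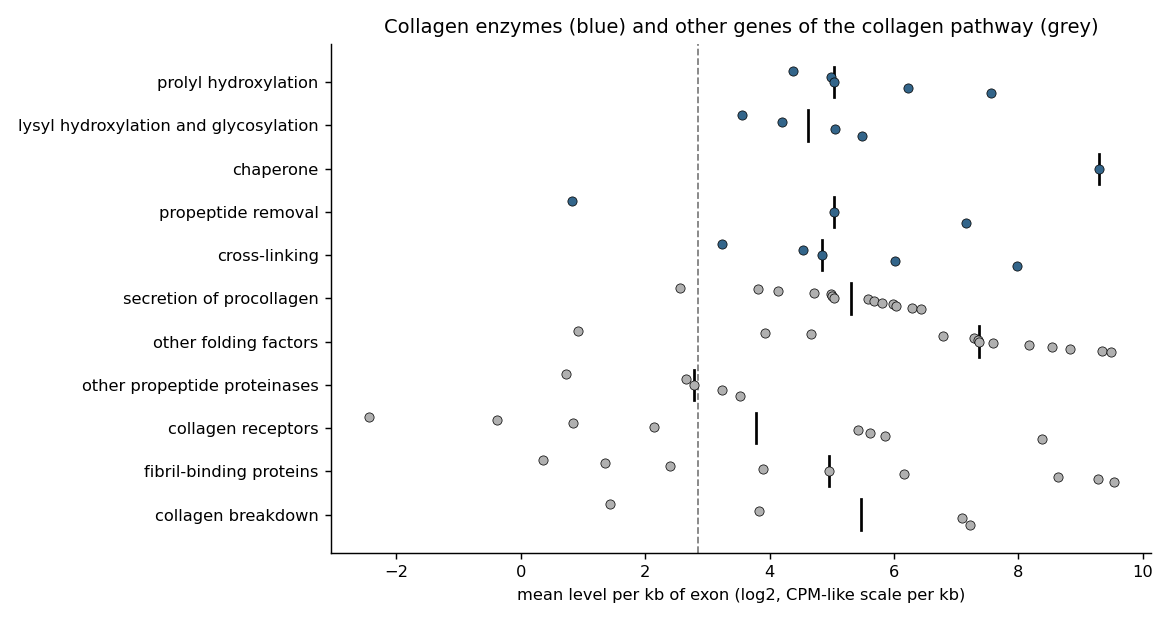
Mean level per kb of exon (log2, CPM-like scale per kb, 1 point per gene) of the 18 collagen enzymes by step (blue) and of other genes of the collagen pathway by list (grey), with the median of each group (bar) and of all genes (dashed line). The medians run from 4.62 for lysine modification to 9.29 for the chaperone, and the other proteinases of propeptides lie lowest among the lists with a median of 2.79.

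Of the genes around these steps, folding factors stood highest. All 13 other folding factors had a row, with a median level per kb of 7.36, beside 5.04 for the 18 enzymes and 2.85 for all genes. Sparc, a collagen-binding glycoprotein, stood at 9.49 per kb, P4hb, the beta subunit of prolyl 4-hydroxylase, at 9.35 and the endoplasmic reticulum chaperones Calr, Hsp90b1 and Hspa5 at 8.83, 8.54 and 8.17. The subunit P4hb thus exceeded each of the catalytic subunits, and it is also the protein disulfide isomerase of the cell. Fkbp10, a prolyl isomerase for collagen, stood at 7.36 per kb and Tmem38b, an ion channel of the endoplasmic reticulum, at 0.93. Of 15 genes for procollagen export, 14 had a row with a median of 5.30 per kb, among them Mia3 (TANGO1), the receptor that loads procollagen, at 5.58, and the coat subunits Sec13 at 6.29 and Sec24a at 2.56.

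Of 8 other proteinases of propeptides, 5 had a row, with Adamts2, the N-proteinase, at 2.79 per kb, Adamts14 at 3.24, Adamts3 at 0.73, Tll1 at 2.66 and Furin at 3.53. Among 8 of 10 collagen receptors with a row, the integrin subunit Itgb1 stood at 8.38 per kb, and its collagen-binding partners Itga11, Itga1, Itga10 and Itga2 stood at 2.14, 0.85, -0.37 and -2.44. The receptor kinases Ddr1 and Ddr2 stood at 5.85 and 5.42 per kb, and the uptake receptor Mrc2 at 5.61. Of 11 proteins that bind fibrils 9 had a row, with a median of 4.96 per kb, Fn1, Thbs1 and Bgn at 9.53, 9.28 and 8.63, Dcn at 6.16, Thbs2 at 4.96 and Prelp at 3.90. Fmod, Ogn and Tnxb lay below the median of all genes, at 2.40, 1.36 and 0.35 per kb, and Lum and Comp had no row. For breakdown, the gelatinase Mmp2 stood at 7.21 per kb and the membrane collagenase Mmp14 at 7.10, Ctsk at 3.84 and Mmp13 at 1.43, whereas Mmp1a, Mmp8, Mmp9 and Fap had no row.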

How the data were processed

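RNA from BMS493- and DMSO-treated mSSC-YFP cells was sequenced by the authors from stranded mRNA libraries. Per the paper and the submitters' processing notes, reads were filtered with FastQC, aligned to mm10 with STAR 2.3.0e, counted per Ensembl gene from uniquely mapped reads with Rsubread and normalized with TMM (a trimmed and weighted mean of log ratios between libraries). The RNA protocol in the labels describes array and qPCR work instead. The authors deposited log2 values in 1 table of 12589 genes. The column of mean log2 expression over all samples was used. The other 4 columns hold the authors' own comparison of BMS493 with DMSO (log2 fold change, t, p-value and adjusted p-value) and were neither used nor compared with anything here. Whether a count was added before taking logs, and whether strand was used in counting, is not given in the sources used here.

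Decimal commas were read as points. Symbols were matched to GENCODE M21, 11783 directly and 603 through an older symbol, and 98.4% of genes obtained an exon length. That release is not the Ensembl release used for counting. Gly-X-Y runs were read from the longest coding sequence of each gene. The work was done in Python 3.11.15 with numpy 2.4.6 and pandas 2.3.3, and the search for Gly-X-Y runs was tested on simulated sequences. The simulated sequences held glycine only at the first position of a triplet, so breaks that hold glycine, like that of Col4a1, were not tested. Classes, lists and members were chosen with earlier results of these data known. The plan allowed names for the highest chains of each class, for every chain of a type with several chains in the data and for every enzyme. Col3a1, Col27a1, Col20a1 and Col22a1 were named beyond this plan. Shares and ratios were computed from 2 raised to the mean log2 level, which is a geometric mean over samples. Lists were described by counts and medians, with no set test.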

Additional observations from a re-analysis of the deposited data

How the results depend on the processing

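No paired analysis was possible because only a mean pooled over both groups was used and no sample has a value of its own. For the same reason the other settings intended for BMS493 against DMSO (another tool or pseudocount, no filter on low values, leaving out each replicate) were not run. A coding length from RefSeq proteins, also intended, was not run, and the coding length of GENCODE was used in its place, chosen after seeing the data. With no spread between samples, a shift over 0.25 on the log2 scale was counted as a move. Values here are log2 differences, of a class median per kb from the median of all genes on the same scale, or of 1 chain from another. A coding length was known for 91.3% of genes and an exon length for 98.4%. A shift of a class over the coding length thus also takes in a change of the genes behind the median. Since the mean pools both groups and depth is unknown, a level near the lower end of the table carries an error that cannot be given.

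The FACIT median turned from 0.02 above all genes to -0.30 over the longest transcript and -1.31 over the coding length, and became 0.69 unscaled and 0.70 among members with a level of at least 1. Over the longest transcript, the basement membrane class moved from 4.01 to 3.61, beaded filament from 4.17 to 4.50, cross-linking from 1.99 to 1.56 and propeptide removal from 2.19 to 2.48. Over the coding length, values were 2.70 for basement membrane, 3.90 for beaded filament, 1.14 for cross-linking, 3.14 for fibrillar (3.73 over the union of exons), 1.21 for lysine modification (1.77) and -4.31 for multiplexins (-3.12). Unscaled, they were 4.61 for basement membrane, 5.09 for beaded filament, 4.89 for fibrillar, -2.52 for multiplexins, 3.20 for propeptide removal and 0.68 for the short-chain network (0.25). With a level of at least 1, multiplexins were at -1.61. The prolyl hydroxylation class kept 2.03 to 2.23 throughout.

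No ratio between chains turned. Over the longest transcript, the coding length and unscaled, Col1a1 over Col1a2 moved from 1.73 to 0.66, 0.73 and 0.81, Col6a1 over Col6a2 from 1.61 to 0.95, 0.70 and 0.69, Col6a2 over Col6a3 from 2.59 to 3.11, 3.74 and 2.07, Col8a1 over Col8a2 from 1.89 to 2.46, 2.60 and 2.69, and Col11a1 over Col11a2 from 4.93 to 5.47, 5.76 and 5.82. Col5a2 over Col5a1 moved from 0.46 to 0.98 and 0.94 over the longest transcript and the coding length, Col4a2 over Col4a6 from 3.75 to 3.46 over the coding length and 3.48 unscaled, and Col5a1 over Col5a3 from 5.12 to 5.44 unscaled. The other class medians and ratios moved by less. Shares under the other lengths, also added after seeing the data, stand beside only some of the main shares. Among those given above over the union of exons alone, type III held 3.49% over the longest transcript and 3.27% over the coding length. Plod1 held 21.0% and 24.6% of its family under these lengths, and Plod3 held 49.7% and 45.9%.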
